A study of Homo sapiens with 2 samples.

Results

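The 10 genes described here, KLF2, KLF4, KLF5, KLF17, TFCP2L1, TFAP2C, DPPA2, DPPA3, DPPA5 and ESRRB, are known as genes of the naive pluripotent state and of the early embryo. Each was found on the arrays through the RefSeq transcript that the array design assigns to a probe, and each had 1 probe, so that 10 of the 58201 probes were taken. Their messenger RNA was compared between a pair of substates of H9, a human embryonic stem cell line, grown without feeder cells on Matrigel, a basement membrane extract, in the defined medium TeSR-E8. The study separated the substates by colony shape and by antibody staining for vimentin and for the keratan sulphate epitope R-10G. Cells kept on Vitronectin, where most colonies already stained as substate 1, were moved to Matrigel. There the share of colonies that stained as substate 2 rose. Substate 1 was sampled at passage 35 and substate 2 at passage 50, and 1 array was made from each. The study's methods place H9 cells on Matrigel from passage 35, so time on Matrigel may also differ between the samples. Substate, passage and any such difference in time on Matrigel therefore cannot be told apart. The differences below were not checked in replicates and hold for these 2 RNA samples. As each RNA sample was drawn from many cells, fewer cells that express a gene and less RNA per cell cannot be told apart.

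Human pluripotent cells can be held in a naive state, which resembles the epiblast before implantation, or in a primed state, which resembles it after implantation and is the usual state of lines such as H9. The naive state is maintained by a set of transcription factors, among them members of the Krüppel-like (KLF) zinc finger family, TFCP2L1 and TFAP2C, while LIF acting through STAT3 supports several of these factors in mouse cells. The developmental pluripotency associated (DPPA) genes mark germ cells and cleavage-stage or pluripotent cells, and their products act in chromatin and RNA regulation.

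The scanner's flag placed 57.4% (substate 1) and 54.7% (substate 2) of the 60901 spots other than controls well above background. No spot was saturated. Both arrays were read in the same scan of the same slide. Levels are given as the log2 of the processed signal minus the 75th percentile of the array, so that 0 is the level of that percentile, and differences are substate 2 minus substate 1 on that log2 scale. A probe's level depends on the probe as well as on the RNA, so levels are compared between arrays and not between genes. A probe is called measured here where both arrays had it well above background, which 29883 probes met, and their differences had a median of 0.06 and an SD of 0.40. Replicated probes gave a spot noise of 0.07 (SD) for a difference of single spots. The core pluripotency genes were higher in substate 2 on these probes, with differences of 0.42 for NANOG, 0.26 for SOX2, and 0.29 and 0.24 for a pair of POU5F1 probes. Under loess centring these were 0.26, 0.08, 0.05 and 0.05. The study called none of these genes significantly different between the substates. CDH1, the epithelial cadherin, was 2.78-fold lower in substate 2, and VIM, the gene of the intermediate filament vimentin, was 5.76-fold higher.

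The sequences just upstream of the measured members are shown because these are the members whose signals can be compared between the substates. They run 5′ to 3′ over the 250 bases before the transcription start (RefSeq, GRCh38.p14). They were found for 3 of the 4 measured members, at chr2:121285203-121285452 (minus strand) for TFCP2L1, chr3:109316518-109316767 (minus strand) for DPPA2 and chr1:44118571-44118820 (plus strand) for KLF17, and TFAP2C was not in the sequence table used. Capitals mark the E-box CACCTG, or CAGGTG on the other strand, which ZEB1 and SNAI factors recognise, and the GT-box CACCC, or GGGTG on the other strand, which KLF factors recognise.
TFCP2L1 promoter: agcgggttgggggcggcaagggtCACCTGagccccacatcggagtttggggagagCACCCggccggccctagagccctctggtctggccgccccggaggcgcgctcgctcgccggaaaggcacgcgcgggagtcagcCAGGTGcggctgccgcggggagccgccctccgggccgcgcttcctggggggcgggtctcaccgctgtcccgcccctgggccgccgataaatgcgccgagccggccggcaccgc
DPPA2 promoter: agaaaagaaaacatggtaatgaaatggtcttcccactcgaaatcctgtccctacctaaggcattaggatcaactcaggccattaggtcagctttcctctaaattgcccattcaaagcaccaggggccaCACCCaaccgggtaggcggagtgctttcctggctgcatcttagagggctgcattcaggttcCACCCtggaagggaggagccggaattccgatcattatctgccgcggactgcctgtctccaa
KLF17 promoter: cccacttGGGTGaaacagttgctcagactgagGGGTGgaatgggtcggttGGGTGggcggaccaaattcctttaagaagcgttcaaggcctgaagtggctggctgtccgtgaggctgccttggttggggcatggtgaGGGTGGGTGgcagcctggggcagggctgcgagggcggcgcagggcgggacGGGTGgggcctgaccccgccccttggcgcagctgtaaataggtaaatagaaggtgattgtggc
The TFCP2L1 promoter held 2 E-boxes and 1 GT-box, the DPPA2 promoter 0 and 2, and the KLF17 promoter 0 and 6. In these windows no E-box match overlapped a GT-box match, while a pair of the KLF17 GT-boxes shared 1 base. Of the 35116 promoters in the table, 17.5% held at least 1 such E-box and 54.7% at least 1 such GT-box. Counted by gene, where a match in any listed promoter counts, 2 of the 9 members with a promoter held the E-box (TFCP2L1 and DPPA5). The GT-box was held by 7, all except KLF2 and KLF4. The shares over the table are by promoter, so the member counts are not in the same unit. In its CpG content the TFCP2L1 window, with 32 CpG, exceeded the DPPA2 window with 7 and the KLF17 window with 11, and the median promoter in the table had 11. A match only describes the letters of the window, and binding was not measured here.

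Of the 10 members, 4 were measured on both arrays (TFAP2C, DPPA2, TFCP2L1 and KLF17), 2 passed the background flag in substate 1 alone (KLF4 and DPPA5) and 4 on neither (KLF2, KLF5, DPPA3 and ESRRB). Across all 31104 probes named through a transcript, 68.5% were measured on both arrays. Thus 4 of the 10 members had no signal well above background on either array. Of all 22439 named genes, 16965 had a probe well above background on at least 1 array, against 6 of the 10 members. Of all 58201 probes, named or not, 33166 were above background on at least 1 array and 25035 on neither. The share of named probes flagged in substate 1 alone was not computed. The 4 measured members were all lower in substate 2, with a median difference of -0.50, while 44.0% of all measured probes were lower. One member, TFAP2C, was lower by 2-fold or more, and none was higher by as much. Among the 33166 probes above background in at least 1 substate, 1.67% were lower by 2-fold or more and 1.55% higher. The study's own rule was a Z-score, the difference minus the mean of all probes divided by their SD, with limits of 2 in either direction. By it 1 member probe, again TFAP2C, passed the lower limit, which 3.30% of all 58201 probes passed, and 0 passed the upper limit, which 3.03% passed.

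**Figure D1:**
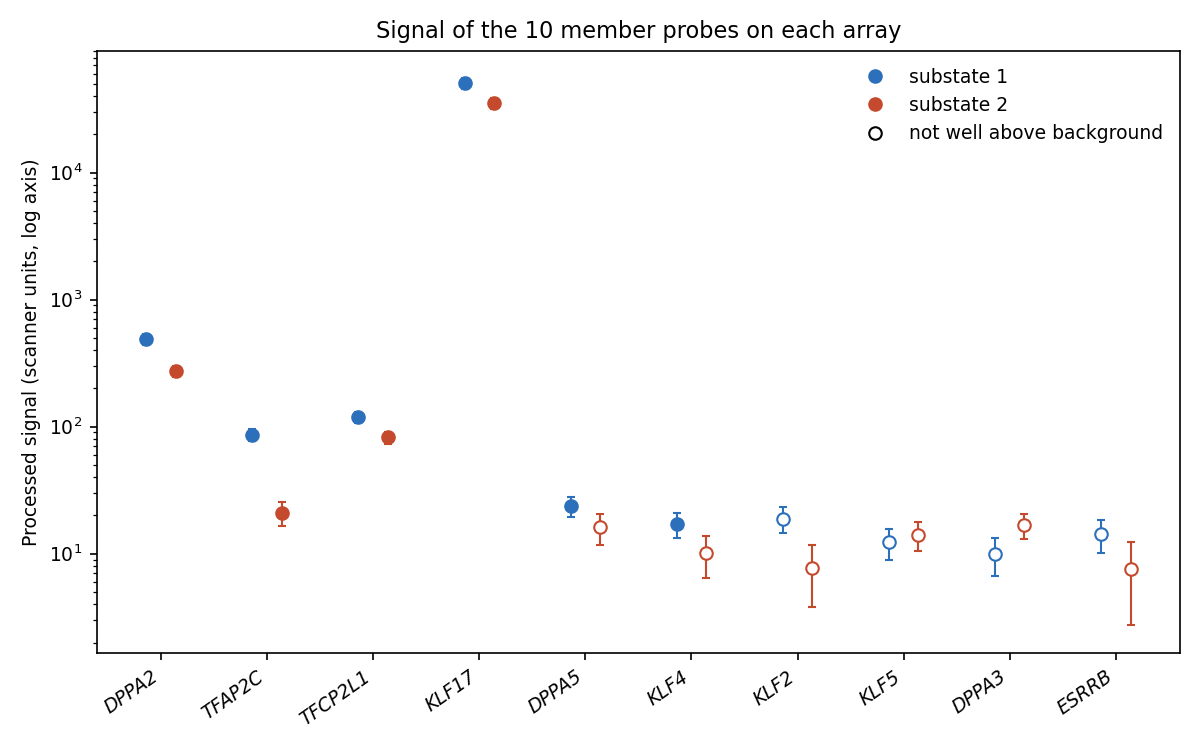
Processed signal of the 10 member probes (y axis, scanner units, log axis) on the substate 1 array (blue) and the substate 2 array (red). Bars are the scanner software's error of a single spot, hidden by the point where small, and open points were not well above background. TFAP2C, DPPA2, TFCP2L1 and KLF17 are filled on both arrays and lower on the second, while KLF2, KLF5, DPPA3 and ESRRB are open on both.

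TFAP2C encodes transcription factor AP-2 gamma, which opens enhancers in naive cells and is also used in trophoblast and primordial germ cells. Its probe (gene on chromosome 20) had a signal of 86.7 ± 9.37 in substate 1 and 21.0 ± 4.36 in substate 2, where the error is the scanner software's for 1 spot. The error ranges did not overlap, and the dimmer signal stood close to the lowest probe well above background on that array, 15.0. The level went from -1.86 to -3.71, a difference of -1.86 ± 0.34 (scanner error), which is 3.62-fold lower in substate 2, with a Z-score of -3.05. Of the 29883 measured probes 17 (0.0569%) were as low or lower in their difference. Among the 4202 measured probes of like mean signal, within 0.5 on the log2 scale, 5 (0.119%) were. With the background corrected by normexp with an offset of 50, the difference was -0.65 and the probe no longer passed the 2-fold rule, and 426 probes were then as low or lower. That run also started from median spot signals, and how much of the change came from the offset was not tested.

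DPPA2 encodes a chromatin protein that works as a heterodimer with DPPA4 and keeps bivalent developmental promoters free of DNA methylation. Its probe (chromosome 3) gave 491 ± 49.2 in substate 1 and 275 ± 27.7 in substate 2. These error ranges did not overlap either. The difference was -0.65 ± 0.20, or 1.57-fold lower, short of the 2-fold rule, and 4.92% of the measured probes were as low or lower. Its partner DPPA4, by contrast, stood at 5.40 in substate 1 and 5.47 in substate 2, a difference of 0.07 that became -0.07 under quantile and -0.09 under loess centring. The Z-score of DPPA2 was -1.14.

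TFCP2L1 encodes a CP2-family factor that lies downstream of LIF and STAT3 in mouse embryonic stem cells and is prominent in human naive cells. Its probe (chromosome 2) read 119 ± 12.4 in substate 1 and 82.2 ± 8.92 in substate 2, a difference of -0.35 ± 0.22. This was 1.27-fold lower, 15.2% of the measured probes were as low or lower, and among 3995 measured probes of like signal 20.4% were. The TFCP2L1 difference thus lay within the bulk of the array.

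KLF17 encodes a Krüppel-like factor that is known from the human epiblast before implantation and from naive cells. Its probe (chromosome 1) was bright on both arrays, at 50363 ± 5036 in substate 1 and 35312 ± 3531 in substate 2. The error ranges did not overlap. The level was 7.33 in substate 1 and 7.00 in substate 2, a difference of -0.32 ± 0.20, or 1.25-fold lower. Of all measured probes 16.6% were as low or lower. Probes of like signal were shifted the other way, with a median difference of 0.24, and 11 of these 285 (3.86%) were as low or lower than KLF17. When the arrays were centred across signal by quantile or loess the difference was -0.52. Whether this probe reports KLF17 transcripts alone was not tested, since no probe sequence was used here, and with 1 probe there was no second reading of the gene.

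**Figure D2:**
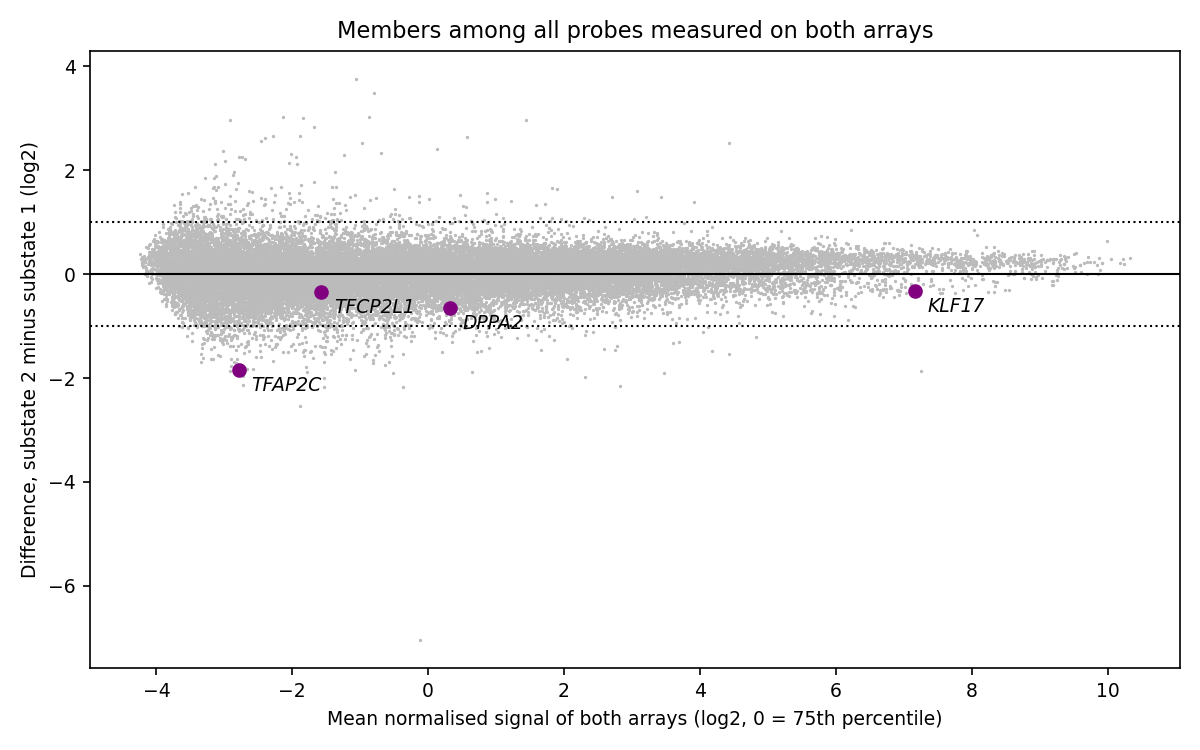
Difference between the substates (y axis, log2, substate 2 minus substate 1) against mean level (x axis, log2, 0 is the 75th percentile) for the 29883 probes well above background on both arrays (grey). The 4 measured members are purple and all lie below 0, with TFAP2C beyond the dotted line that marks a 2-fold difference and KLF17 at the bright end.

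KLF4 and DPPA5 could be read in substate 1 only. KLF4, one of the original reprogramming factors (chromosome 9), gave 17.1 ± 3.70 in substate 1 and 10.1 ± 3.66 in substate 2, where it was not well above background. No fold can be given for it, since its substate 1 signal was too close to the floor of the other array. DPPA5, an RNA-binding protein of embryonic stem and germ cells (chromosome 6), gave 23.8 ± 4.37 and 16.2 ± 4.40 in substate 1 and substate 2, and it too was not well above background in the latter. Its normalised levels stood in a ratio of 1.29. The scanner error ranges of both genes overlapped between the arrays. Their differences changed sign under normexp, to 0.09 for KLF4 and 0.07 for DPPA5, so no direction is given to either.

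KLF2, KLF5, DPPA3 and ESRRB were not well above background on either array, and no fold is given for them. For KLF2, a factor of naive mouse cells (chromosome 19), the signals were 18.8 ± 4.40 in substate 1 and 7.70 ± 3.92 in substate 2. For KLF5, which acts in the early trophectoderm and epiblast (chromosome 13), they were 12.3 ± 3.43 and 14.1 ± 3.71. DPPA3, also called STELLA, protects maternal methylation marks in the zygote (chromosome 12), and its probe gave 9.91 ± 3.29 and 16.8 ± 3.77. ESRRB, an orphan nuclear receptor central to naive mouse cells but little used in human ones (chromosome 14), gave 14.3 ± 4.10 and 7.52 ± 4.79. Signals of this size moved a good deal without any call, since among the 25035 probes on neither array the SD of the difference was 0.68 and 15.9% of them differed by 2-fold or more in plain signal. The negative controls on each array had a median of 3.31 and 3.54. Whatever the flag, 8 of the 10 plain differences were below 0, with KLF5 and DPPA3 above. The like share over all probes was not computed, and no direction is read for members not measured on both arrays.

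Other genes known from the naive state lay on both sides of 0, and their split into lower and higher depended on the scaling. Of 19 such genes with a probe, 11 were measured, 5 lower and 6 higher, with a median difference of 0.07 that became -0.07 under quantile and -0.09 under loess centring. Under the 2-fold rule 1 of them was higher, NR5A2, a nuclear receptor of the early embryo, from -1.87 to -0.81 on the measured probe. Its other probe was seen in substate 1 only and was lower by at least 1.23-fold, so the NR5A2 probes disagreed, and the measured probe differed by 0.71 under normexp. Among all 16965 named genes with a probe above background, 1.60% had a probe lower by 2-fold or more and 1.77% had one higher. KHDC3L passed the flag in substate 1 alone, too close to the floor of the other array for a fold. DNMT3L, FGF4, HORMAD1, MAEL, OLAH, TBX3 and TRIM60 were well above background on neither array.

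In the LIF and STAT3 pathway all 11 listed genes had a probe, 9 were measured, and 8 of these were lower in substate 2, with a median of -0.16 (-0.19 to -0.12 across the alternatives). None reached 2-fold. The largest differences, picked after their values were seen, belonged to the ligand, its receptor and the feedback inhibitor. LIF, the cytokine itself, went from a level of -0.38 to -1.01 (1.56-fold lower), LIFR, its receptor subunit, from -1.01 to -1.64 (1.55-fold lower, with a difference of -0.34 under normexp), and SOCS3, a STAT3 target that dampens the pathway, from 0.95 to 0.40 (1.46-fold lower). A further LIF probe was well above background on neither array. STAT3, the transcription factor, was the exception, with differences of 0.16 and 0.48 on its probes. All 13 genes of the primed state were measured, with 7 lower, 6 higher and a median of -0.04 that became 0.02 under normexp. Of 13 genes of the 8-cell stage, 9 were well above background on neither array, ZSCAN4, LEUTX and DUXA among them, and the 4 measured genes were higher with a median of 0.22.

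Relatives of the members within their families went several ways. Of 22 other KLF and SP genes 19 were measured, 4 lower and 15 higher, with a median of 0.15 (0.10 under loess centring). KLF8, a Krüppel-like repressor, was the only one to differ by 2-fold or more, with a level of -0.61 in substate 1 and -1.95 in substate 2 (2.54-fold lower), and its other probe was at least 1.15-fold lower. The remaining AP-2 genes could not be compared. TFAP2E passed the flag in substate 1 alone, with a bound of 1.39-fold close to the floor, and no direction is given to it. TFAP2A, TFAP2B and TFAP2D passed it on neither array. All 5 other genes of the CP2 and grainyhead family were measured and 4 were lower, with a median of -0.25 (-0.08 under normexp). Of these GRHL2, which sustains epithelial enhancers, went from 0.15 to -0.97 (2.18-fold lower), and its other probe was at least 1.86-fold lower. Under normexp the differences were -0.82 for KLF8 and -0.85 for GRHL2, short of 2-fold. Of the receptors related to ESRRB, ESRRA differed by 0.02 (-0.10 under quantile and loess centring and -0.18 under normexp) and 0.11 on its probes. ESRRG passed the flag in substate 1 alone. Its normalised levels stood in a ratio of 1.64, and no direction is given to it.

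TFAP2C is shared with trophectoderm, amnion, germ cells and epithelia, and markers of these cells are given beside it. Of 12 trophectoderm and amnion markers 5 were measured, 3 of them lower with a list median of -0.37 (-0.02 under normexp), and CDX2, ELF5, GATA3, HAND1 and ISL1 were well above background on neither array. The summed level of that list, on a linear scale in units of the 75th percentile, was 11.8 in substate 1 and 12.1 in substate 2, a sum dominated by the bright KRT7 probe, whose log2 level was 3.28 and 3.44. GABRP, a GABA receptor subunit of amnion, was 2.89-fold lower, and CGA, the hormone alpha subunit, was at least 2.12-fold higher. Of 9 primordial germ cell markers 5 were measured, all lower by the mean over probes with a median of -0.30 (-0.10 under normexp). The probes of DND1 disagreed, with differences of -0.17 and 0.08. The list summed to 23.4 and 20.2, and PRDM1, SOX17, CD38 and DDX4 were well above background on neither array. DAZL, a germ cell RNA-binding protein, was 3.05-fold lower, with a difference of -0.47 under normexp. All 11 epithelial markers were measured and 9 were lower, with a median of -0.71 and summed levels of 351 and 303, and CDH1, OVOL1 (2.64-fold, with a difference of -0.84 under normexp) and CLDN7 (2.49-fold) were lower by 2-fold or more. Of 8 mesenchymal markers 6 were measured and all 6 were higher, with a median of 0.67, though SNAI2 by only 0.02. The list had summed levels of 25.9 and 82.1. FN1 went the other way, passing the flag in substate 1 alone and lower in substate 2 by at least 1.55-fold. ZEB1, a repressor of epithelial genes, was 5.31-fold and 6.35-fold higher on its probes, where the differences of 2.41 and 2.67 became 1.94 and 1.32 under normexp. ZEB2, a related repressor, was above background in substate 2 alone and higher by at least 1.82-fold, 2.87-fold and 5.39-fold on its 3 probes. Of 8 fibroblast markers 4 were measured, 2 lower and 2 higher with a median of -0.14, and COL3A1, DCN, LUM and POSTN were above background on neither array. Of 7 endothelial markers 5 were measured, 3 lower and 2 higher with a median of -0.09 (-0.21 under normexp), and PECAM1 and ERG were on neither. Of 7 neural markers 3 were measured, all higher with a median of 0.92 (0.54 under normexp), POU3F2, SOX1 and HES5 were above background in substate 2 alone, and PAX6 was on neither. Higher by 2-fold or more were GBX2 (7.82-fold), POU3F2 and DLK1, 3.22-fold on 1 probe (a difference of 0.95 under normexp) and 1.11-fold on the other. For POU3F2 the value was a ratio of 13.3 to a substate 1 level not well above background. The part of these cell types in the TFAP2C difference was not tested.

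**Figure D3:**
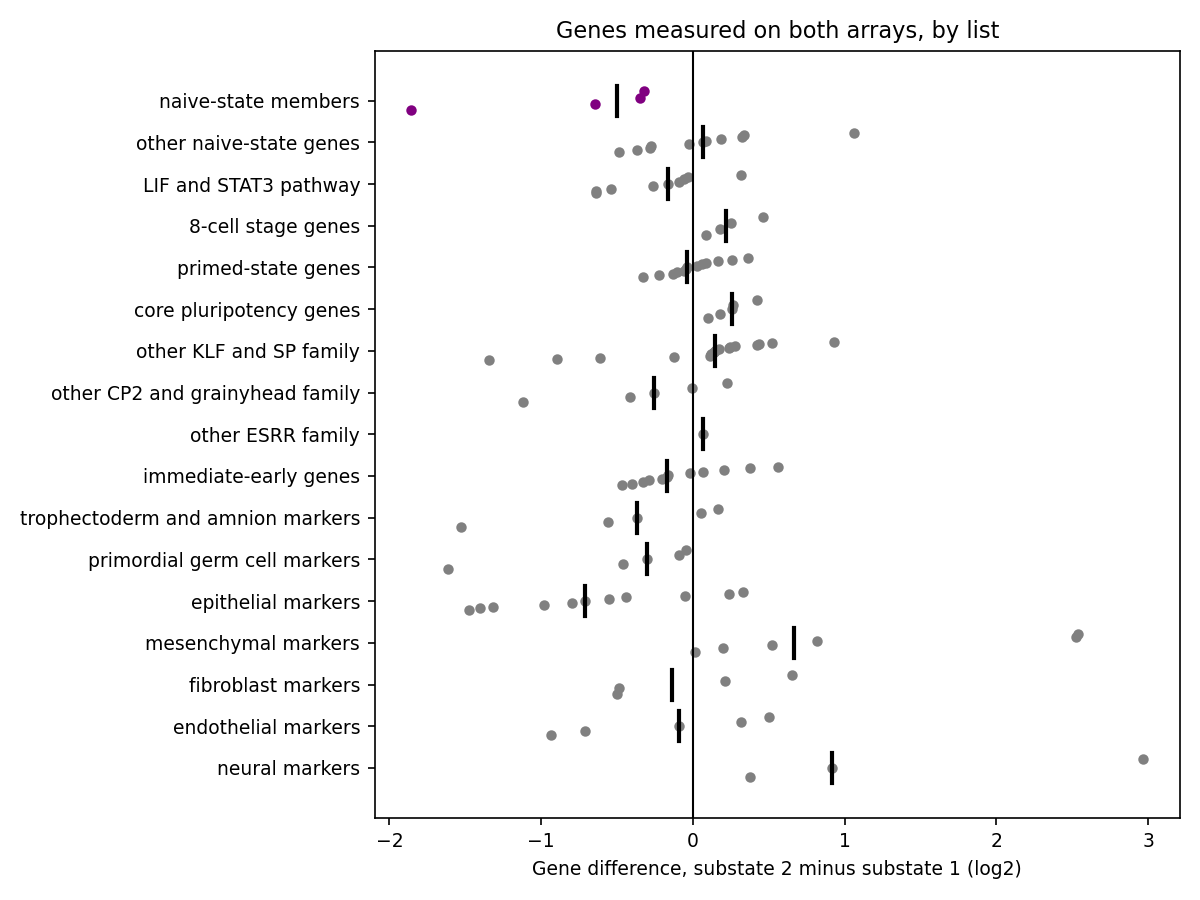
Difference of each measured gene (x axis, log2, substate 2 minus substate 1, mean over its measured probes) by gene list (y axis), with a black bar at the list median and the naive-state members in purple. The 4 members lie below 0, the other naive-state genes lie on both sides, and the epithelial and mesenchymal lists have medians of -0.71 and 0.67.

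Immediate-early genes, such as those of the FOS and EGR families, answer quickly to serum and stress. Of 15 listed, 12 were measured, 8 lower and 4 higher, with a median of -0.17 (-0.08 under normexp), and none differed by 2-fold or more.

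**Figure D4:**
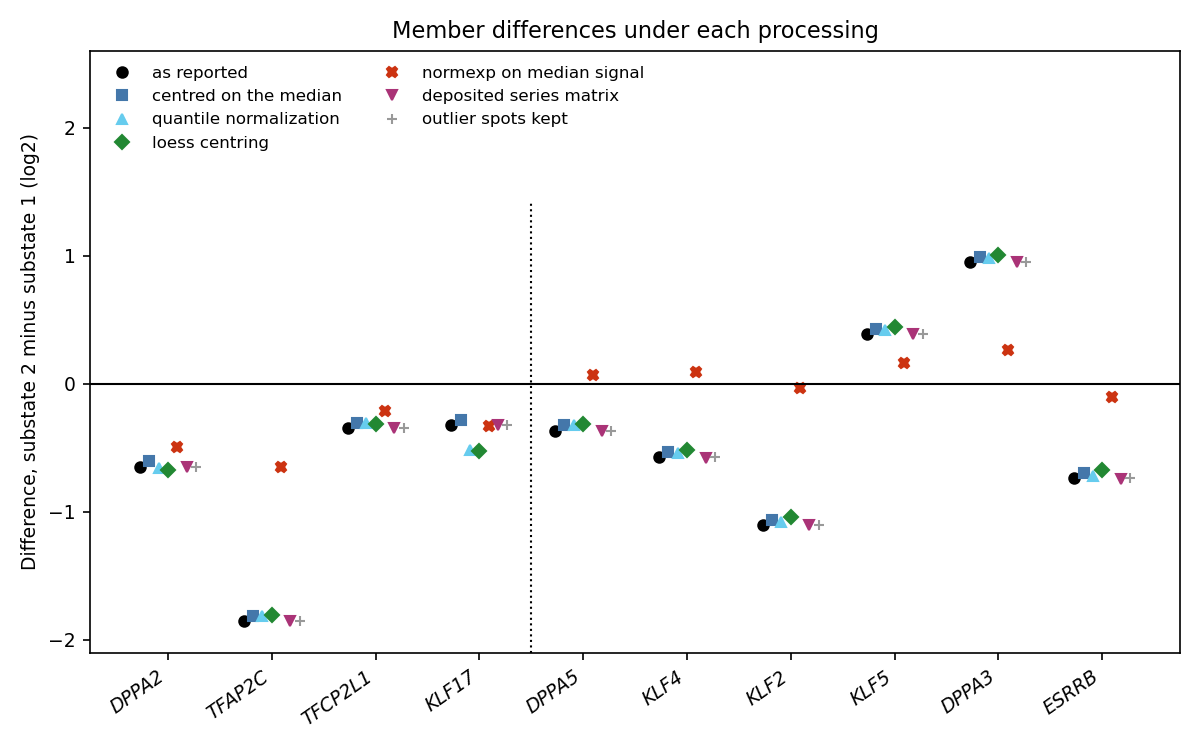
Difference of each member (y axis, log2, substate 2 minus substate 1) under the processing used and each alternative (symbols), with the 4 measured members left of the dotted line. The measured members stay below 0 under every alternative drawn, while TFAP2C is at -0.65 under normexp, and KLF4 and DPPA5 cross 0 under normexp.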

How the data were processed

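RNA of each substate was labelled with Cy3 and hybridised to 1 single-colour Agilent array. The authors deposited scanner output with an intensity per spot, which, per the file headers, Feature Extraction 11.5.1.1 (protocol GE1_1105_Oct12) had corrected for background. The authors also deposited log2 values, made with a floor of 1 and a shift by the 75th percentile within each array. These equalled the values computed here but for a constant per array for all probes within 0.01.

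Here intensities were floored at 1 and put on the log2 scale, outlier spots were left out, and the 75th percentile over non-control probes was subtracted. Genes were named by matching the design's RefSeq transcript, without its version, to a gene table of GRCh38.p14, which named 31104 of 58201 probes. A gene's value is the mean over its measured probes. A probe well above background on 1 array was given a bound. This is the brighter level over the dim probe's level or the dim array's lowest level among probes well above background, whichever is higher. It is written as at least N-fold, or as a plain ratio where the dim probe's own level was the higher. With 1 array per group there is no test or p-value, and the number of arrays limits the precision. Scanner errors cover 1 spot and leave out variation of cells, RNA and labelling.

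The members and lists were chosen with earlier results of these data known. Every member is named, and of the other lists genes that differed by 2-fold or more (at most 4 a list), markers not above background, and CDH1, VIM, ZEB1, NANOG, SOX2 and POU5F1. LIF, LIFR, SOCS3, STAT3, DPPA4, KHDC3L, TFAP2E, ESRRA, ESRRG, KRT7, DND1, FN1, SNAI2, SOX1, HES5 and the families' other probes given were chosen after their values were seen. Alternatives tried were median centring, quantile and loess scaling (span 0.3) and normexp correction (limma 3.58.1, R 4.3.3), the deposited matrix, outlier spots kept, other filters on dim probes and another SD for the Z-score. Python 3.11.15 and pandas 2.3.3 were used, and the code was tested on simulated data.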

Additional observations from a re-analysis of the deposited data

How the results depend on the processing

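The 4 measured members were lower in substate 2 under every alternative run. Some of these were no separate check. Median centring and the deposited matrix moved all differences by a constant, and keeping outlier spots left the members unchanged. The median difference of the 4 measured members, -0.50, was -0.588 under quantile normalisation, -0.599 under loess centring and -0.412 under normexp. With no filter on dim probes 8 members were lower, a count that takes in members to which no direction is given. The count of members past the 2-fold rule was 0 under normexp. The count past the Z-score limits was 2 under normexp (TFAP2C and DPPA2, with Z-scores of -3.18 and -2.52) and 6 when the median absolute deviation set the SD. Those 6 included KLF2, KLF4, ESRRB and DPPA3, which were not measured on both arrays. The TFAP2C difference lay between -1.86 and -1.81 under the other scalings and was -0.65 under normexp. The part of the offset in that change was not tested. The median of all measured probes moved by at most 0.04 under any scaling. Normexp was run on median spot signals, a choice made after seeing the data, because the scanner files used here hold no mean signal. Naming by the gene name of the scanner file was not run, because the files used here hold no such column. No paired analysis was possible because there was 1 array for each substate. Signal over background was the limit for the 6 members not measured on both arrays.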
